A study of Homo sapiens with 10 samples.

Results

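Genes of nucleolar ribosome biogenesis and of RNA polymerases I and III were compared between growing and replicatively senescent IMR90 cells. These are human lung fibroblasts of fetal origin. Members were taken by name: probe sets with a single gene symbol beginning with NOP, NOL, UTP, RRP, POLR1 or POLR3, together with FBL, NCL, NPM1, DDX21, PES1, WDR12, UBTF, RRN3 and MYC. The rule gave 156 probe sets of 65 genes, out of 19775 genes with a probe set of their own on the HG-U133 Plus 2.0 array, and it used no measured value. A further 4 names, BOP1, NOP56, UTP14C and RRP7BP, occurred only on probe sets that carry several symbols and were not analysed here. Total RNA was measured on 5 arrays of proliferating cells at 28 population doublings and on 5 arrays of senescent cells at 90 population doublings. The senescent cells had been passaged until growth ceased and were then kept for 2 weeks, and both groups grew at 3% oxygen in medium with 10% serum. No label names a treatment or a gene perturbation, so growth state and the number of doublings differ together between the groups. Nothing in the labels says that the 5 samples of a state were grown separately, so every p-value here rests on a spread that may be technical.

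Ribosomes are built in the nucleolus. RNA polymerase I transcribes the ribosomal DNA into a long precursor with the help of the factors UBTF and RRN3, and RNA polymerase III makes 5S rRNA, transfer RNAs and other short RNAs. Small nucleolar ribonucleoproteins (snoRNPs) modify the precursor, the small-subunit processome and a set of large-subunit factors fold and cleave it, and MYC is a transcription factor known to drive many of these genes in growing cells. Dividing cells spend a large part of their energy on this pathway.

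Most members were lower in senescent cells. Values are the deposited log2 values, so a difference of 1 is 2-fold, and a gene is said to have risen or fallen when limma's p, adjusted by the Benjamini-Hochberg method over all 12909 tested genes, was under 0.05. Of 65 members 63 had signal enough to be tested, which means above the 40th percentile of the array on at least 5 of the 10 arrays. Of these, 40 fell and 8 rose, and 15 did not pass, whereas of all tested genes 30.3% fell and 31% rose (61.3% in either direction). The median difference of the tested members was -0.38, against 0.04 over all tested genes. All senescent values lay below all proliferating values for 33 members and above them for 5, against 25.1% and 26.7% of all tested genes (51.8% in either direction). The differences were mostly small: 10 members fell by at least 2-fold and 1 rose by as much, against 10.2% and 10% of all tested genes. In bulk RNA, fewer cells of a type and less RNA per cell cannot be told apart, and values scaled per array do not give RNA per cell.

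**Figure D1:**
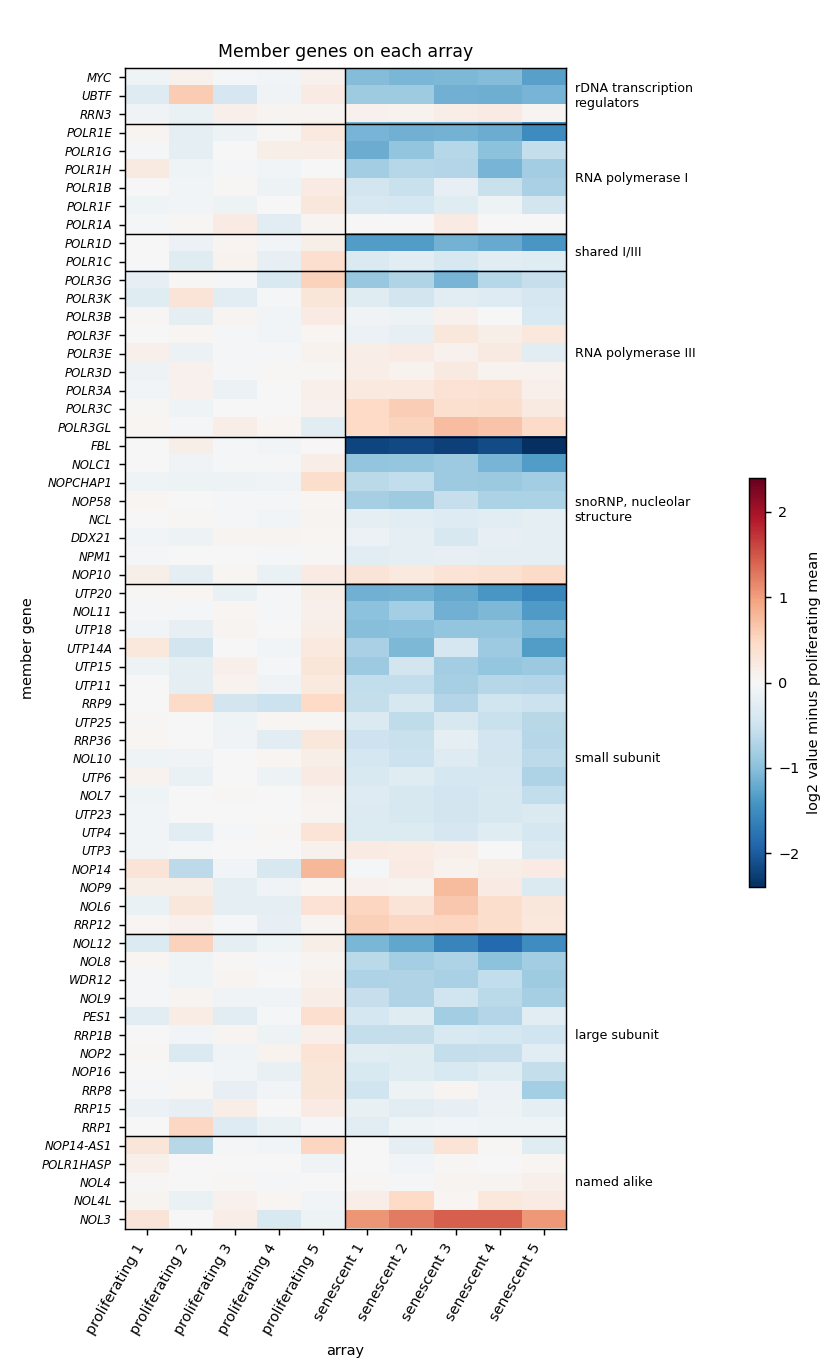
Log2 value of each of the 63 tested members (rows, grouped by role) on each of the 10 arrays (columns), with the gene's mean over the proliferating arrays subtracted, blue for lower and red for higher. FBL is the darkest row, and the RNA polymerase III block holds both blue and red rows.

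The samples expressed the markers of their labelled cell type, and also some genes listed for other cells. The 10 fibroblast markers, such as COL1A1, COL1A2 and VIM, had group means between 7.23 and 15.47. Of markers of other cells, 5 of 10 epithelial, 7 of 8 endothelial, 5 of 6 leukocyte and 1 of 6 smooth muscle genes were below the 60th percentile on all arrays, and the mean of the leukocyte list was 2.83 to 2.95 on proliferating and 3.44 to 3.54 on senescent arrays. In that list HBB, a globin gene, was higher in senescent cells (5.28 and 8.59), while PTPRC, the pan-leukocyte gene, was at 3.16 and 3.21. Epithelial list means were 4.65 to 4.75 and 4.22 to 4.46, with CDH1, KRT5, KRT8, NKX2-1 and CLDN4 below the 60th percentile throughout. Of those above it, EPCAM went from 6.49 to 4.18, KRT19 from 5.41 to 4.15, KRT18 from 9.89 to 9.43 and SFTPC from 7.43 to 7.77, each without overlap, and MUC1 from 5.88 to 6.37 with overlap. The endothelial gene TEK went from 9.90 to 10.52. Among smooth muscle genes ACTG2 went from 12.75 to 13.28, LMOD1 from 4.81 to 5.54 and MYH11 from 5.94 to 5.22. TEK and these smooth muscle genes had no overlap, while CNN1 (6.53 and 6.68) and SMTN (5.91 and 5.87) overlapped. The part of these markers in the results below was not tested. The 3' minus 5' signal of the ACTB control, a sign of RNA integrity, averaged 2.07 (SD 0.14) on the 5 proliferating arrays and 2.32 (SD 0.10) on the 5 senescent ones, without overlap. The exact two-sided permutation p for it was 0.00794, or 0.063 when adjusted over 8 control measures. Since the control did not overlap between groups, a fit that includes it separates it from growth state only in part. No cause is read from a call lost in such a fit. With that control as a covariate in limma 31 members fell and 5 rose. Of all tested genes 25.9% fell and 23.5% rose in that fit, also fewer than the 30.3% and 31% without the covariate. Counts by role in that fit are given below, and the part of the control in the results was not tested further. Leaving out any 1 array gave 37 to 39 members that fell and 7 to 9 that rose.

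Control probe sets for rRNA differed little. Standard labelling primes on poly(A), so they read rRNA carried into the reaction and not rRNA per cell. The 3 probe sets for 18S rRNA were at 14.58, 14.11 and 14.63 in proliferating and 14.60, 14.17 and 14.68 in senescent cells, and differed by at most 0.06 (exact permutation p = 0.44 to 0.68). Among the 3 for 28S rRNA, the 5' and middle probe sets were at 15.31 and 10.41 against 15.33 and 10.46 (exact permutation p = 0.79 and 0.11), and the 3' probe set was near background at 2.10 and 2.13. None of these 6 passed after adjustment over the 8 control measures (smallest adjusted p = 0.27), and the groups overlapped for each.

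**Figure D2:**
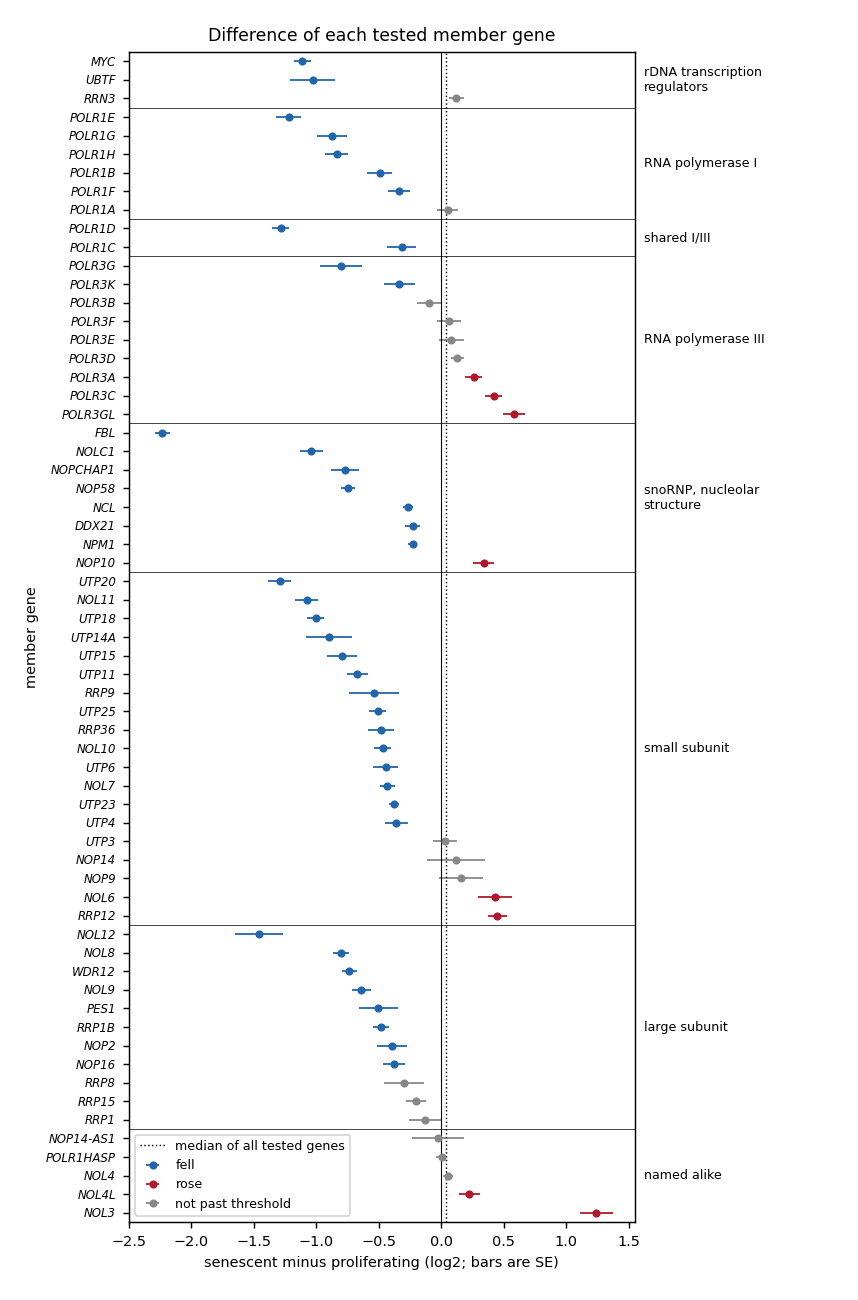
Senescent minus proliferating difference (log2, bars are SE from limma, n = 5 arrays each) of every tested member by role; blue fell, red rose, grey did not pass. The dotted line is the median of all tested genes at 0.04, and the differences run from -2.23 for FBL to 1.24 for NOL3.

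The letters CACGTG, the canonical E-box that MYC with its partner MAX is known to bind, were common around the start sites of these genes. RefSeq promoter windows of the GRCh38.p14 assembly, from 250 bases before to 50 after the start, were at hand for 54 members, and in the first listed window of each gene 18 (33.3%) held CACGTG, which reads the same on both strands. Of 27305 genes with such a window 7.43% held it in the first listed one, and of the 15842 protein-coding genes among them 8.88% did. Over all listed windows, with several starts for some genes, 19 of 67 member windows (28.4%) and 7.26% of 35116 windows in all held it. The 18 members were FBL, NOL6, NOL7, NOL8, NOP2, NOP10, NOP14, PES1, POLR1G, POLR3A, POLR3C, POLR3E, RRP9, UTP4, UTP14A, UTP18, UTP20 and UTP25. Of these 12 fell and 4 rose (66.7% and 22.2%). Of the 34 tested members whose window lacked the letters 20 fell and 3 rose (58.8% and 8.8%), so both shares were larger with the letters. The medians of both sets were -0.47 and -0.31. Among all tested protein-coding genes 36% of 983 with the letters and 31.6% of 8805 without them fell, and 32% and 32.2% rose. No window was at hand for MYC, POLR1E, NOLC1, NOP58, NOL10, POLR3G, RRP1B and UTP23, which fell, RRP12, which rose, and POLR3D and POLR1HASP. A match describes the sequence only, since binding was not measured here. Of the 18, the stretches of FBL, UTP20, UTP18 and POLR1G are shown as those of 4 genes with large falls, and that of NOP10 as one that rose, all chosen among members with the motif inside the shown stretch. Each runs 5′ to 3′ on the gene's own strand from 100 bases before to 30 after the start, with CACGTG in capitals.
FBL (chr19:39846350-39846479, minus strand): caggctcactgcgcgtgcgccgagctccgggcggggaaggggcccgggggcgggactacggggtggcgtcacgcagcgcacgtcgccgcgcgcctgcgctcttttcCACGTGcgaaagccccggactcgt
UTP20 (chr12:101280005-101280134, plus strand): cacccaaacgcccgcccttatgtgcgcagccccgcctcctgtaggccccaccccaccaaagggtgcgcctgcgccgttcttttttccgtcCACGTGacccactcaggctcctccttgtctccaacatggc
UTP18 (chr17:51260446-51260575, plus strand): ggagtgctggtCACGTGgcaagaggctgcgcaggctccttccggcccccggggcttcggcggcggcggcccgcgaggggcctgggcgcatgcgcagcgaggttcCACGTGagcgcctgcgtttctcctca
POLR1G (chr19:45406544-45406673, plus strand): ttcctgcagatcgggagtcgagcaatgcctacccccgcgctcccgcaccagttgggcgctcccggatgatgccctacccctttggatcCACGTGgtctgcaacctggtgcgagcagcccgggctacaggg
NOP10 (chr15:34343107-34343236, minus strand): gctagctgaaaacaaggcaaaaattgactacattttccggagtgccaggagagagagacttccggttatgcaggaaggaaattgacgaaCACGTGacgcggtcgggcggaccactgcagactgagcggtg
In these 5 its first base is at position 7 for FBL, at -10 for UTP20, at -89 and again at 5 for UTP18, at -12 for POLR1G, and at -11 for NOP10, whose longer window holds another at -170. In other members it lies farther out, with its only copy at -241 for UTP14A and -149 for NOL7, which fell, at -196 for POLR3C, which rose, and at 36 for NOP2, which fell.

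Of the regulators that set the rate of ribosomal DNA transcription, MYC and UBTF fell and RRN3 did not change beyond the threshold. MYC was at 10.67, 10.89, 10.73, 10.71 and 10.88 on proliferating arrays 1 to 5 and 9.74, 9.68, 9.70, 9.74 and 9.47 on senescent arrays 1 to 5. Every senescent array lay below every proliferating array, with senescent 5 lowest. The fall of MYC was 2.16-fold (log2 -1.11, SE 0.07), with limma's adjusted p = 2.1e-07. MYC was measured on 1 probe set, which is named as shared. UBTF encodes the upstream binding factor that opens ribosomal DNA for RNA polymerase I. Its values were 9.26, 10.18, 9.17, 9.50 and 9.76 on proliferating arrays 1 to 5 and 8.73, 8.72, 8.43, 8.40 and 8.46 on senescent arrays 1 to 5. Proliferating arrays 1 and 3 were nearest to the senescent arrays and proliferating 2 was highest, and the groups did not overlap. UBTF fell by 1.03 (SE 0.18, limma's adjusted p = 5.6e-04), and by 0.56 with the ACTB control as covariate (adjusted p = 0.043). All 4 of its tested probe sets fell, and the log2 differences of the others were -0.93, -0.39 and -0.36. RRN3, which brings RNA polymerase I to the promoter, was at 9.70, 9.64, 9.91, 9.86 and 9.85 on proliferating arrays 1 to 5 and 9.89, 9.87, 9.94, 9.99 and 9.85 on senescent arrays 1 to 5. Its groups overlapped and its difference was 0.12 (SE 0.06, limma's adjusted p = 0.11). RRN3 passed as higher when arrays were centred on the median of tested genes (0.18, adjusted p = 0.027) or quantile normalised (adjusted p = 0.011), and its difference was near 0 when they were centred on reference genes. MYC and UBTF both fell in the fit with the ACTB covariate too.

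**Figure D3:**
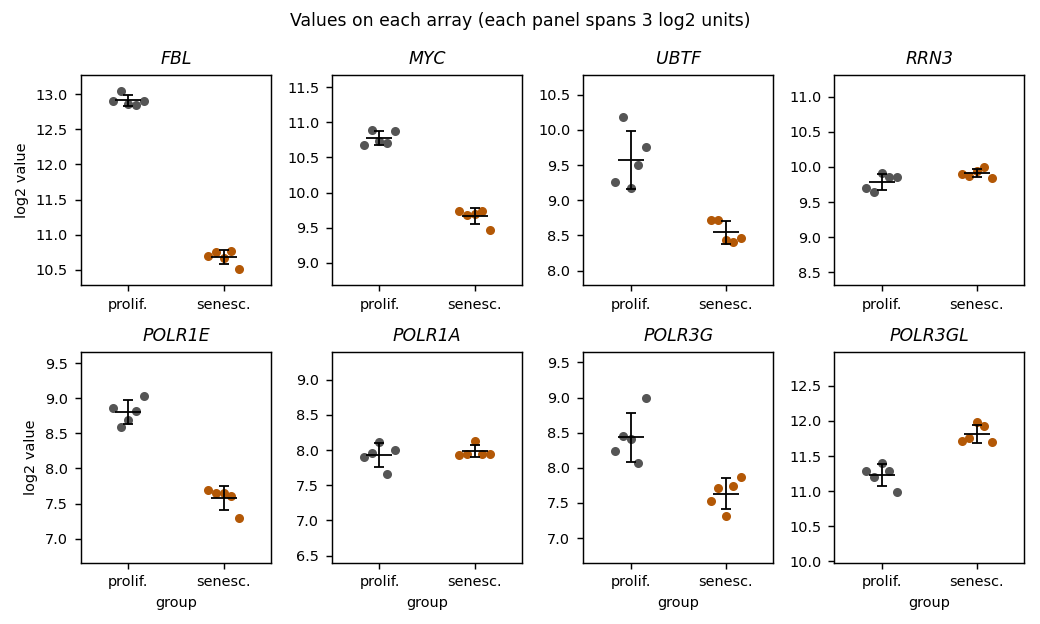
Log2 values of 8 members on each array (points), with mean and SD (n = 5 each), in panels that each span 3 log2 units. Groups do not overlap for FBL, MYC, UBTF, POLR1E, POLR3G and POLR3GL, the last of which is higher in senescent cells, and overlap for RRN3 and POLR1A.

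RNA polymerase I was lower in 5 of its 6 own subunits, and the exception was the largest. POLR1E, a subunit of the peripheral heterodimer that helps initiation, was at 8.86, 8.59, 8.69, 8.82 and 9.03 on proliferating arrays 1 to 5 and 7.69, 7.65, 7.66, 7.61 and 7.29 on senescent arrays 1 to 5. Both groups were tight apart from a lower senescent 5, and they did not overlap. POLR1E fell 2.33-fold (log2 -1.22, SE 0.10, limma's adjusted p = 2.0e-06). Its heterodimer partner POLR1G fell by 0.87 and POLR1H, the small subunit that aids RNA cleavage, fell by 0.84 (SE 0.12 and 0.09), each with groups apart. POLR1F, part of the stalk that contacts RRN3, fell by 0.33 (SE 0.09, limma's adjusted p = 0.0068), a call lost with the ACTB covariate (-0.31, adjusted p = 0.098). Of the 2 large catalytic subunits POLR1B fell and POLR1A did not pass, a contrast that was not tested. The second largest, POLR1B, was at 8.74, 8.67, 8.77, 8.62 and 8.93 on proliferating arrays 1 to 5 and 8.31, 8.20, 8.56, 8.22 and 7.97 on senescent arrays 1 to 5. It was lower on each senescent array and fell by 0.49 (SE 0.10, limma's adjusted p = 0.0017), although without probe sets named as shared its remaining, dim probe set gave 0.11 (adjusted p = 0.15). The largest, POLR1A, was at 7.90, 7.97, 8.12, 7.67 and 8.00 on proliferating arrays 1 to 5 and 7.93, 7.94, 8.13, 7.95 and 7.95 on senescent arrays 1 to 5. The groups overlapped and it differed by 0.05 (SE 0.08, limma's adjusted p = 0.59), while of 2 dimmer probe sets one fell by 0.19 (adjusted p = 0.046 over probe sets) and the other gave 0.25 and did not pass. Adding the ACTB covariate left 4 of the 6 lower.

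POLR1C and POLR1D, which form the assembly heterodimer shared by polymerases I and III, both fell on the probe set with the highest signal. POLR1D was at 10.82, 10.66, 10.87, 10.74 and 10.94 on proliferating arrays 1 to 5 and 9.46, 9.47, 9.68, 9.60 and 9.41 on senescent arrays 1 to 5. Senescent values were all lower than proliferating ones, and POLR1D fell 2.43-fold (log2 -1.28, SE 0.07, limma's adjusted p = 7.9e-08). Its other probe sets did not follow, as one rose by 0.42 (limma's adjusted p = 0.0021 over probe sets) and the other differed by 0.16 (adjusted p = 0.13). POLR1C was at 10.80, 10.50, 10.87, 10.60 and 11.20 on proliferating arrays 1 to 5 and 10.45, 10.51, 10.41, 10.52 and 10.50 on senescent arrays 1 to 5. Its groups overlapped, with proliferating 5 highest and proliferating 2 within the senescent range. POLR1C fell by 0.32 (SE 0.12, limma's adjusted p = 0.036). That call did not hold without proliferating 1 or 3 or without any single senescent array, where differences of -0.33 to -0.30 had adjusted p of 0.055 to 0.074, nor with the ACTB covariate (adjusted p = 0.084).

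Subunits of RNA polymerase III moved in both directions: of 9 particular to it, 2 fell, 3 rose and 4 did not pass, with a median difference of 0.08. These shares, from the brightest probe set of each gene, are near those of all tested genes. With all tested probe sets of each gene averaged, 1 of the 9 fell and 5 rose, against 30.4% and 32% of all tested genes. The subunit pair POLR3G and POLR3GL moved apart. Both encode versions of the same subunit, of which POLR3G is known from stem cells and tumour cells and POLR3GL from differentiated cells. POLR3G was at 8.24, 8.45, 8.41, 8.06 and 8.99 on proliferating arrays 1 to 5 and 7.52, 7.71, 7.31, 7.74 and 7.87 on senescent arrays 1 to 5. Proliferating 5 was highest, and no senescent array reached the lowest proliferating one. It fell by 0.80 (SE 0.17, limma's adjusted p = 0.0019), and its 2 dimmer probe sets also fell, with log2 differences of -0.57 and -0.71. POLR3GL was at 11.29, 11.21, 11.40, 11.29 and 10.99 on proliferating arrays 1 to 5 and 11.71, 11.76, 11.98, 11.92 and 11.70 on senescent arrays 1 to 5. All senescent arrays were above all proliferating arrays, and POLR3GL rose 1.50-fold (log2 0.58, SE 0.09, limma's adjusted p = 1.9e-04). The change of POLR3G minus that of POLR3GL was -1.38 (SE 0.26), outside the proliferating range on 5 of 5 senescent arrays, with an exact permutation p = 0.00794 (two-sided, the smallest that 5 against 5 arrays can give) and 0.020 when adjusted over the 5 pairs compared. With the ACTB covariate POLR3G was at -0.53 and did not pass (adjusted p = 0.10), whereas POLR3GL was at 0.45 (adjusted p = 0.015).

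Of the 2 large catalytic subunits of polymerase III one rose and the other did not pass. The largest, POLR3A, was at 9.03, 9.20, 8.97, 9.09 and 9.22 on proliferating arrays 1 to 5 and 9.34, 9.33, 9.44, 9.47 and 9.21 on senescent arrays 1 to 5. Only senescent 5 overlapped the proliferating range, and POLR3A rose by 0.26 (SE 0.07, limma's adjusted p = 0.0064), which was 0.14 and did not pass with arrays centred on reference genes (adjusted p = 0.13). Its 2 other tested probe sets did not pass. The second largest, POLR3B, was at 8.77, 8.53, 8.81, 8.68 and 8.94 on proliferating arrays 1 to 5 and 8.66, 8.62, 8.84, 8.75 and 8.38 on senescent arrays 1 to 5. Its groups overlapped, with a difference of -0.10 (SE 0.10, limma's adjusted p = 0.40). Set against their polymerase I counterparts within each array, the change of POLR1B minus that of POLR3B was -0.40 (SE 0.056, exact permutation p = 0.00794, adjusted 0.020), and that of POLR1A minus POLR3A was -0.21 (SE 0.10, exact permutation p = 0.063, adjusted 0.079). POLR3C, of the initiation subcomplex, rose by 0.42 (SE 0.07), the same on both of its probe sets, with no overlap. POLR3K, the RNA-cleavage subunit, fell by 0.34 (limma's adjusted p = 0.038). That call was lost with the ACTB covariate (-0.10) and without proliferating 2, 4 or 5 or senescent 1, 2, 4 or 5 (-0.35 to -0.26, adjusted p 0.055 to 0.084), and its unshared probe set gave 0.02. POLR3D, POLR3E and POLR3F differed by 0.13, 0.08 and 0.06 (limma's adjusted p = 0.050, 0.47 and 0.58). POLR3D passed as higher under 8 alternatives, among them without proliferating 2 or senescent 5 (0.15 and 0.14). POLR3E passed under 4, among them without senescent 5 (0.17), and its difference over the alternatives reached 0.57. Of 4 tested probe sets of POLR3E 1 rose and 3 did not pass. None of the 9 fell and the same number, 3, rose when the ACTB covariate was added.

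Proteins of the snoRNPs and of the nucleolus as a body fell in 7 of 8 cases (87.5%, against 30.3% of all tested genes). FBL had the largest fall of any member. FBL encodes fibrillarin, the methyltransferase of the box C/D snoRNPs that places ribose methyl groups on rRNA. Its values were 12.90, 13.05, 12.86, 12.85 and 12.90 on proliferating arrays 1 to 5 and 10.70, 10.75, 10.67, 10.76 and 10.51 on senescent arrays 1 to 5. Both groups were narrow and far apart, with proliferating 2 highest and senescent 5 lowest. FBL fell 4.70-fold (log2 -2.23, SE 0.06, limma's adjusted p = 5.9e-10), on the single probe set that measures it. That probe set is named as shared, so the fall could not be checked on an unshared one. NOP58, a core protein of the same particles, fell by 0.75 (SE 0.06), and NOPCHAP1, a chaperone for their assembly, by 0.77 (SE 0.11). NOLC1, a phosphoprotein that carries snoRNPs and binds polymerase I, was at 12.46, 12.38, 12.45, 12.43 and 12.63 on proliferating arrays 1 to 5 and 11.52, 11.55, 11.60, 11.36 and 11.13 on senescent arrays 1 to 5. No senescent value reached the proliferating range, and NOLC1 fell 2.06-fold (log2 -1.04, SE 0.09, limma's adjusted p = 3.2e-06). Its 2 dimmer probe sets fell too, with log2 differences of -2.42 and -1.52.

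The abundant nucleolar proteins fell little. NCL, nucleolin, was at 13.56, 13.60, 13.55, 13.52 and 13.64 on proliferating arrays 1 to 5 and 13.35, 13.31, 13.26, 13.29 and 13.33 on senescent arrays 1 to 5. NPM1, nucleophosmin, was at 14.27, 14.31, 14.31, 14.27 and 14.33 on proliferating arrays 1 to 5 and 14.04, 14.05, 14.09, 14.06 and 14.08 on senescent arrays 1 to 5. Both had narrow groups that did not overlap, and fell 1.20-fold and 1.17-fold (log2 -0.27 and -0.23, SE 0.04 and 0.03, limma's adjusted p = 1.4e-04 and 1.3e-04). The change of NCL minus that of NPM1 was -0.04 (SE 0.03, exact permutation p = 0.27). The other probe sets of NPM1 fell with log2 differences of -0.35 and -0.79. The helicase gene DDX21 fell by 0.23 (limma's adjusted p = 0.0059, and 0.059 with the ACTB covariate). NOP10, a small protein of the H/ACA snoRNPs that guide pseudouridine, was the exception. It rose by 0.34 (SE 0.09, limma's adjusted p = 0.0056) with groups apart, although the ACTB covariate took it below the threshold (0.22, limma's adjusted p = 0.18), as did arrays centred on reference genes (0.22, adjusted p = 0.051). In the fit with the ACTB covariate 6 of the 8 fell and none rose.

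Small-subunit factors fell in 14 of 19 cases and rose in 2 (73.7% and 10.5%, against 30.3% and 31% of all tested genes). Their median difference was -0.47. UTP20, a very large scaffold protein of the processome, was at 9.06, 9.08, 8.88, 8.98 and 9.17 on proliferating arrays 1 to 5 and 7.89, 7.90, 7.80, 7.65 and 7.48 on senescent arrays 1 to 5. Senescent 5 was lowest and the groups were more than a log2 unit apart at their means. UTP20 fell 2.45-fold (log2 -1.29, SE 0.09, limma's adjusted p = 5.7e-07). NOL11, of the subcomplex that links transcription to processing, was at 10.01, 10.00, 10.11, 10.01 and 10.17 on proliferating arrays 1 to 5 and 9.08, 9.24, 8.91, 8.98 and 8.70 on senescent arrays 1 to 5. It fell by 1.08 (SE 0.09, limma's adjusted p = 2.8e-06), with no overlap, on a single probe set that is named as shared. UTP18, a WD-repeat protein that brings the exosome helicase to the precursor, was at 10.24, 10.11, 10.37, 10.31 and 10.47 on proliferating arrays 1 to 5 and 9.27, 9.29, 9.34, 9.36 and 9.21 on senescent arrays 1 to 5. UTP18 fell 2.00-fold (SE 0.07 on the log2 scale, limma's adjusted p = 4.0e-07), and the log2 difference of its other probe set was -0.94. UTP14A, which activates the helicase that dissolves the processome, was at 8.59, 7.90, 8.35, 8.28 and 8.58 on proliferating arrays 1 to 5 and 7.57, 7.26, 7.94, 7.46 and 7.00 on senescent arrays 1 to 5. Senescent 3 lay above proliferating 2, the only overlap between its groups, and UTP14A fell by 0.89 (SE 0.18, limma's adjusted p = 0.0017), or by 1.42 with the ACTB covariate. Its other tested probe set did not pass.

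The other small-subunit genes that fell did so by 0.36 to 0.80. UTP15 and UTP4, of the same subcomplex as NOL11, fell by 0.80 and 0.36, and UTP11, UTP6, UTP25 and UTP23 by 0.67, 0.45, 0.51 and 0.38. NOL10, NOL7 and RRP36 fell by 0.47, 0.43 and 0.48. RRP9, the U3 snoRNP protein, fell by 0.54 (limma's adjusted p = 0.039), but not under every alternative. That call was lost without proliferating 1, 2 or 5 or any single senescent array (-0.57 to -0.42, adjusted p 0.051 to 0.085) and with the ACTB covariate (-0.09, adjusted p = 0.79). Probe sets of NOL7 disagreed. The one not named as shared rose by 0.34 (limma's adjusted p = 0.014 over probe sets), and 2 named as shared fell, with log2 differences of -0.43 and -0.41. The calls for UTP11, UTP4 and UTP23 rest on 1 shared probe set each, and the brightest unshared ones gave -0.20, -0.21 and 0.09, none past the threshold. The members that rose were RRP12, a transport factor of the maturing subunits, by 0.45 (SE 0.08, limma's adjusted p = 4.4e-04), and NOL6, of the UTP-C subcomplex, by 0.43 (SE 0.13, limma's adjusted p = 0.017). RRP12 was higher on all 5 senescent arrays, but only on a shared probe set, and its other probe sets gave at most 0.12. NOL6 had overlapping groups and lost its call once the ACTB covariate was included (0.55, limma's adjusted p = 0.052). Its 2 dimmer tested probe sets gave 0.20 and 0.39 and did not pass. UTP3, NOP14 and NOP9 differed by 0.03, 0.12 and 0.16 and did not pass, and RRP7A was too dim to test, with means from 1.65 to 2.88 on its 3 probe sets. In the fit with the ACTB covariate 13 of the 19 fell and 1 rose.

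Large-subunit factors fell in 8 of 11 cases (72.7%, against 30.3% of all tested genes) and none rose, with a median of -0.48. NOL12, an RNA-binding protein of precursor processing, was at 7.70, 8.58, 7.80, 7.92 and 8.17 on proliferating arrays 1 to 5 and 6.94, 6.80, 6.45, 6.16 and 6.54 on senescent arrays 1 to 5. The groups were well apart, and NOL12 fell 2.75-fold (log2 -1.46, SE 0.19, limma's adjusted p = 6.5e-05), while a probe set near background gave -0.06. WDR12 and PES1, partners in the complex that processes the large-subunit precursor, fell by 0.73 (SE 0.06) and 0.50 (SE 0.16, limma's adjusted p = 0.018). WDR12 had no overlap between groups on that probe set, while 2 dimmer ones gave 0.04 and -0.03 and did not pass. PES1 had overlapping groups, and PES1 was at -0.14 with the ACTB covariate (adjusted p = 0.59). NOL8 and NOL9, the latter a kinase that prepares the second internal spacer for trimming, fell by 0.80 and 0.64. NOP2, an rRNA cytosine methyltransferase, and NOP16 fell by 0.39 and 0.38 (limma's adjusted p = 0.017 and 0.0041), and neither passed with the ACTB covariate (adjusted p = 0.065 and 0.058). Of the other 3 probe sets of NOP16, one fell (-0.35) and 2 gave 0.04 and 0.05 and did not pass.

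RRP1 and RRP1B are paralogues, both linked to the large subunit. RRP1B was at 10.83, 10.74, 10.87, 10.69 and 10.93 on proliferating arrays 1 to 5 and 10.24, 10.23, 10.45, 10.40 and 10.34 on senescent arrays 1 to 5. Its groups were apart, and it fell by 0.48 (SE 0.06, limma's adjusted p = 6.0e-05) and by 0.43 on its other probe set. RRP1 was at 4.26, 4.78, 3.98, 4.12 and 4.25 on proliferating arrays 1 to 5 and 4.02, 4.18, 4.21, 4.18 and 4.17 on senescent arrays 1 to 5. It lay below the 60th percentile on every senescent array, near background, and it differed by -0.13 (limma's adjusted p = 0.41). The change of RRP1 minus that of RRP1B was 0.35 (SE 0.16, exact permutation p = 0.048, 0.079 adjusted over 5 pairs), with 0 of 5 senescent arrays outside the proliferating range, and nothing is read from it since RRP1 was near background. RRP15 and RRP8, an rRNA methyltransferase also tied to ribosomal DNA silencing, were at -0.20 and -0.30 (limma's adjusted p = 0.051 and 0.13). RRP15 passed without proliferating 1 (-0.24) or 2 (-0.25), and both passed when arrays were centred on reference genes (-0.32 and -0.42). NOP53 had 1 probe set of its own, at 2.50 and 2.51, and was not tested. Under the ACTB covariate 5 of the 11 fell.

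Of the 5 members that share a name with the rest but have another or an unclear role, none fell and 2 rose. NOL3 encodes an inhibitor of apoptosis and is not a ribosome factor. It was at 6.03, 5.74, 5.89, 5.35 and 5.61 on proliferating arrays 1 to 5 and 6.78, 6.98, 7.16, 7.15 and 6.76 on senescent arrays 1 to 5. Every senescent array was higher, and NOL3 rose 2.37-fold (log2 1.24, SE 0.13, limma's adjusted p = 1.6e-05), the only 2-fold rise among members. NOL4L rose by 0.22 (limma's adjusted p = 0.036) and by 1.97 and 0.42 on dimmer probe sets. The call on its main probe set was lost without proliferating 2, 4 or 5 or senescent 2, 4 or 5 (0.16 to 0.24, adjusted p 0.051 to 0.081), with arrays centred on reference genes (0.10) and with the ACTB covariate. NOL4 and the antisense transcript POLR1HASP were below the 60th percentile on all arrays, and NOP14-AS1, antisense to NOP14, differed by -0.03. All 40 members that fell, and 6 of the 8 that rose, were thus in the other roles. One of the 2 that rose here, NOL3, did so with the ACTB covariate.

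Probe sets of a gene did not always move together. Of 132 tested probe sets of members 64 (48.5%) fell and 15 (11.4%) rose, against 26.2% and 26.9% of 32732 tested probe sets in all. Of 42 members with more than 1 tested probe set, 22 had the same call on each, of which 12 fell on each, such as UBTF, NOLC1, NPM1, UTP25 and POLR3G. In 18 a call was seen on part of the probe sets, and in 2, POLR1D and NOL7, probe sets were called in opposite directions. Among the 18, NOL6 and POLR3A each had 2 tested probe sets that did not pass. POLR1C, POLR1E, POLR1F, RRP36 and UTP14A each had 1. Leaving out probe sets with a suffix for shared sequence left 50 members to test, of which 26 fell and 8 rose. Of the 48 called members 39 had a value there. FBL, MYC, NCL, NPM1, NOL6, NOL10, NOL11, POLR1H and UTP18 had none, so their calls could not be checked in this way. Averaging all tested probe sets of each gene instead of using the brightest gave 37 that fell and 10 that rose. It brought the difference of NOL12 to -0.76, POLR1D to -0.23, WDR12 to -0.24, UBTF to -0.68, POLR1B to -0.30, UTP11 to -0.44, NOL7 to -0.17, NOP16 to -0.16, RRP12 to 0.15 and POLR3A to 0.12, all past limma's threshold. It brought NOLC1 to -1.66, NPM1 to -0.46 and NOL4L to 0.87, and UTP23 (-0.11), POLR3K (-0.16) and POLR1C (-0.28) did not pass.

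**Figure D4:**
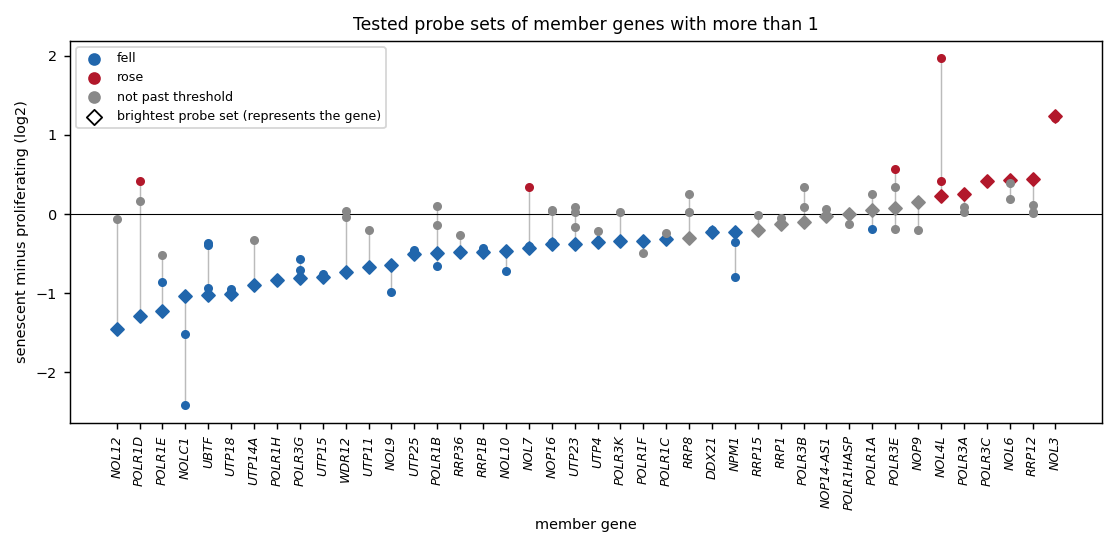
Senescent minus proliferating difference (log2) of each tested probe set, for the 42 members with more than 1; diamonds mark the brightest probe set, blue fell, red rose, grey did not pass. POLR1D and NOL7 have blue diamonds below 0 and a red point above it, and NOLC1 has dimmer probe sets below its diamond.

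Genes of the pathway outside the naming rule mostly fell as well. Of 203 such genes on the array, from 8 lists, 193 were tested and 119 fell and 23 rose, against the 30.3% and 31% of all tested genes, with a median of -0.32. Of 29 other small-subunit factors 21 fell and none rose, led by the rRNA acetyltransferase NAT10 (-0.98), the methyltransferase EMG1 (-0.97), RCL1 (-0.95) and TSR1 (-0.91, but -0.06 on its unshared probe set). Of 41 other large-subunit factors 23 fell, with TMA16 (-1.14), RRS1 (-1.08) and MRTO4 (-0.96) lowest, and 5 rose, among them ZNF622 (1.36), a factor that joins the subunit late in the cytoplasm, DDX31 (0.38), DDX24 (0.33) and the export adaptor NMD3 (0.25). LAS1L, the spacer endonuclease, fell by 0.91 on a shared probe set and rose by 1.49 on its other one. Of 13 snoRNP partners 11 fell, with treacle (TCOF1, -1.49), which is a partner of UBTF and kin to NOLC1, and the assembly chaperones RUVBL2 (-1.22), PIH1D1 (-1.21) and RUVBL1 (-0.94) lowest, and ZNHIT6 rose (0.60). The highest adjusted p in limma among these genes was 0.0023, for NMD3. Other probe sets of DDX31, DDX24 and ZNHIT6 gave -0.003, 0.14 and 0.005 and did not pass. Those of NMD3 gave 0.29, which passed, and 0.19, which did not. Adding the ACTB covariate left 17, 20 and 9 genes lower in the small-subunit, large-subunit and snoRNP lists, and DDX31 (0.23) and NMD3 (0.14) did not pass.

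RNA exosome genes, whose products trim the rRNA precursor from its 3' end, held larger falls than any member but FBL. Of 14 exosome and nuclease genes 10 fell and 2 rose (71.4% and 14.3%, against 30.3% and 31% of all tested genes). EXOSC2, EXOSC9 and EXOSC8 fell by 1.82, 1.80 and 1.70 (SE 0.12, 0.09 and 0.08, limma's adjusted p at most 4.3e-07) and EXOSC3 by 0.89. EXOSC4 rose by 0.44, and ISG20L2 by 0.23 (limma's adjusted p = 0.023), the latter not without senescent 2 or 4 (0.22 and 0.21) or with the ACTB covariate. The other probe set of ISG20L2 gave -0.002 and did not pass. Cytosolic ribosomal proteins fell in 37 of 53 cases (69.8%) and rose in none, with a median of -0.22. RPS9 (-1.03), RPL8 (-0.66), RPL18 (-0.53) and RPL12 (-0.50) were lowest. Only these 53 of the 79 listed had a probe set of their own, so the rest of the family was not seen. Still lower under the ACTB covariate were 10 exosome and nuclease genes and 24 ribosomal protein genes.

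**Figure D5:**
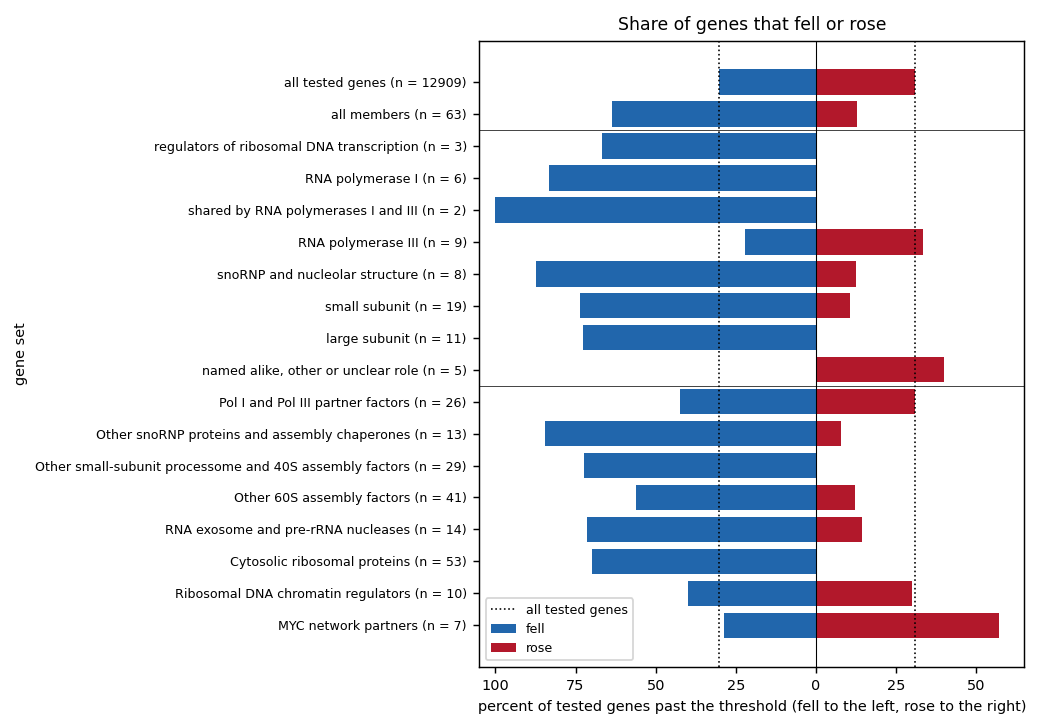
Percent of tested genes that fell (blue, to the left) or rose (red, to the right), for all tested genes, all members, members by role and lists of other pathway genes; dotted lines mark all tested genes at 30.3% and 31%. Members fell in 63.5% and rose in 12.7% of cases, whereas RNA polymerase III subunits fell in 22.2% and rose in 33.3%.

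Of 26 partner factors of the polymerases 11 fell (42.3%) and 8 rose (30.8%), shares not far from the 30.3% and 31% of all tested genes. Those lowest were TTF1 (-1.02), the terminator of polymerase I, the promoter selectivity subunits TAF1A (-0.75) and TAF1B (-0.74), and GTF3C3 (-0.66) of the polymerase III factor TFIIIC. Those highest were BRF2 (1.43, limma's adjusted p = 1.9e-08) and the snRNA-activating subunits SNAPC5 (0.96) and SNAPC1 (0.75), which serve a class of polymerase III promoters, and the common polymerase subunit POLR2L (0.69). Probe sets of SNAPC5 disagreed, as a dimmer one fell, with a log2 difference of -0.48 (limma's adjusted p = 0.017 over probe sets). The median was 0.00, and with the ACTB covariate 9 fell and 5 rose.

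Of 10 regulators of ribosomal DNA chromatin 4 fell (40%) and 3 rose (30%), shares near those of all tested genes. KDM2B (-1.55), CTCF (-0.96), SMARCA5 (-0.53) and TOP1 (-0.32) fell, and ERCC6 (1.79), SIRT7 (0.85) and KDM2A (0.19) rose. In proliferating cells SIRT7 and ERCC6 were dim, at 4.52 and 4.96, near the 60th percentile of the arrays (4.73 to 4.77). ERCC6 rose by 0.45 on its other probe set, and the other probe sets of KDM2A gave -0.10 and 0.03 and did not pass. KDM2A (0.01 with the ACTB covariate) passed neither there nor without proliferating 2, 4 or 5 or senescent 1 or 3 (0.14 to 0.18). Of 7 MYC partners tested, out of 12 on the array, 2 fell (28.6%) and 4 rose (57.1%). Of all tested genes 30.3% fell and 31% rose. MXD1, a repressor that competes with MYC for MAX, was at 8.36 ± 0.17 in proliferating and 11.20 ± 0.09 in senescent cells (SD, n = 5 each). It rose by 2.84 (SE 0.08, limma's adjusted p = 9.4e-10), the most of the list. MXI1, of the same repressor family, rose by 0.68 (limma's adjusted p = 0.026, and 0.051 without senescent 2), MLXIP by 0.39 and MAX by 0.15. Without proliferating 5 the log2 difference of MXI1 was 0.44 and still passed. MLX and MGA fell by 1.26 and 0.58. Of the other MLX probe sets, those at -1.97 and -1.30 fell and those at 0.17 and 0.10 did not pass. Of the other MGA ones, those at -0.54 and -0.63 fell and the one at -0.03 did not pass. Other MAX probe sets gave 0.27, which passed, and 0.10, 0.05 and 0.15, which did not. Those of MLXIP gave 0.34, which passed, and 0.37, which did not. With arrays centred on reference genes MXD1 alone of the 4 that rose passed, and with the ACTB covariate MXD1 and MLXIP did.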

How the data were processed

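Values are log2 values per probe set, as deposited by the authors; Partek and GCRMA are named in the submitters' processing notes, without settings, and the log2 scale is read from the range of the values. Symbols came from the platform annotation, updated through gene identifiers to RefSeq (GRCh38.p14); 41091 probe sets had 1 symbol, 1801 several, 11721 none, and 62 were controls. Members, lists and tests were chosen with earlier results of these data known. Probe sets exceeding the 40th percentile of the array in 5 or more samples were tested, and the brightest of these on average stood for the gene. Differences, senescent minus proliferating, were tested with lmFit and eBayes of limma 3.58.1 (R 4.3.3), checked on simulated data. Single values and pairs had a two-sided exact permutation test. Named were all members and, of each list of other genes, up to 4 called genes in each direction with the largest differences; array values are given for the 12 largest differences, the genes of pairs and role classes of 3 or fewer. The pairs UTP14A with UTP14C and NOP56 with NOP58 could not be compared. No scan batch was known, and precision is limited by 5 arrays a group. Array correlations were 0.993 to 0.998 within and 0.930 to 0.939 between groups, and no array repeated another. Alternatives changed scaling, filter, probe sets, covariates, model and arrays used (closing section).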

Additional observations from a re-analysis of the deposited data

Results flagged for a closer look

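Among 126 groups of 5 arrays (63 members in 2 states), 9 had an array far from the others by Dixon's criterion, a gap over 0.71 of the range, where chance gives about 1 in 20 groups. Senescent 5 was the array apart in 4 of them, always on the low side: POLR1E at 7.29 (next 7.61), POLR3E at 9.38 (next 9.76), NOP16 at 9.90 (next 10.11) and MYC at 9.47 (next 9.68). POLR1A was high on senescent 3 at 8.13 (next 7.95), RRP1 low on senescent 1 at 4.02 (next 4.17), and UTP15 high on senescent 2 at 8.71 (next 8.32). Among proliferating arrays FBL was high on array 2 at 13.05 (next 12.90) and NOPCHAP1 high on array 5 at 7.98 (next 7.48). Without proliferating 2 and senescent 5 together, 39 members fell and 9 rose.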

How the results depend on the processing

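Over 22 alternatives, 31 to 42 members fell except without shared probe sets, where 26 of 50 tested did (40 of 63 otherwise), and the median difference stayed between -0.50 and -0.27. The number that rose was 5 with arrays centred on reference genes and 5 with the ACTB covariate, against 8, and 10 with arrays centred on the median of tested genes, with quantile normalisation and with the mean of probe sets. Of 193 tested partner genes 119 (61.7%) fell and 23 rose. Without shared probe sets 66 fell, 49.6% of the fewer tested, against 27.6% of all genes tested there. With centring on reference genes 139 fell and 13 rose, with the ACTB covariate 95 and 15, and with centring on the median of tested genes 105 and 25. The shares of all tested genes moved as well. In the same order 36.4%, 25.9% and 27.6% of them fell and 23.8%, 23.5% and 34.5% rose. Centring on reference genes moved the median of all genes by -0.12. Leaving out single arrays gave 37 to 39 members lower, 7 to 9 higher and medians of -0.42 to -0.31, and 113 to 121 partner genes lower and 18 to 24 higher. With the replicate block 38 members fell and 6 rose, NOL6, NOL4L, POLR1C and POLR3K losing their calls (adjusted p 0.054 to 0.107), and 115 partner genes fell and 21 rose. Same-numbered arrays did not deviate together (correlations of deviations -0.044 to 0.097, best match with its own number for 1 of 5), so the numbers were not used as pairs. Of 48 called members 29 kept direction and call wherever an alternative gave a value (39 had one without shared probe sets). Without shared probe sets NOL7, POLR1B, POLR3K and UTP23 turned to 0.34, 0.11, 0.022 and 0.090, and LAS1L to 1.49 (0.29 with the mean of its probe sets). There, other and fewer probe sets stand for the genes; the cause of the other losses was not tested. Of 15 members that did not pass, 13 changed sign under some alternative and 5 passed under some. With 5 arrays a group and no detection calls, signal near background limits RRP1, NOL4 and POLR1HASP.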
